A study of Mus musculus with 18 samples.

Results

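The 9 genes described here make, carry, sense and break down retinoic acid: *Aldh1a1*, *Aldh1a2* and *Aldh1a3* (synthesis), *Rara*, *Rarb* and *Rarg* (receptors), *Crabp1* and *Crabp2* (carriers) and *Cyp26b1* (breakdown). They were found by their symbols in the annotated table, where each had 1 of the 28856 transcript clusters, the units that the array measures. The study set *Cd2ap* -/- mice (B6.129X1-Cd2ap tm1Shaw/J) against wild type mice, all at 5 weeks of age, and asked how the cells of the glomerulus differ in this model of focal segmental glomerulosclerosis. Cells positive for GFP were sorted from isolated glomeruli of mice carrying a GFP transgene, which was *Meis1-GFP* for mesangial cells, *Tie2-GFP* for endothelial cells and a further reporter for podocytes. Each of the 6 groups of cell type and genotype has 3 arrays, 18 in all, and the arrays of a group carry the letters A, B and C by column. *Cd2ap* is lost in the whole animal, so a difference in a sorted cell type is not tied to loss of the gene in that cell type. The columns of the mesangial controls carry a plus and a minus sign. Those of the podocyte and endothelial controls carry plus signs alone. The sample titles of the mesangial controls say control, while the titles of the podocyte and endothelial controls say wild type. The mesangial controls are called wild type here. By the column marks these mice would be heterozygous, which the titles do not state. Comparisons of mesangial cells with other cell types, also of genotype effects, would then not tell cell type from control genotype.

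Retinol enters cells and is held by carrier proteins, and retinol dehydrogenases turn it into retinal, a step that *Dhrs3* runs in reverse. Retinaldehyde dehydrogenases of the *Aldh1a* family then make retinoic acid in a step that does not run back. Retinoic acid binds the receptors RARα, RARβ and RARγ, which sit on DNA as partners of retinoid X receptors, and CYP26 enzymes destroy it. In the kidney the pathway is best known for its part in development, and in podocytes retinoic acid is known to favour differentiation.

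The sorted cells carried the markers of their names. Over lists of 10 genes each, the summed signal of podocyte markers was 14065 to 18377 in the podocyte arrays, that of mesangial markers was 17304 to 18349 in wild type mesangial arrays and lower, 12567 to 14341, in those labelled mutant, and that of endothelial markers was 16129 to 18785 in the endothelial arrays. Podocyte arrays also carried mesangial markers, with sums of 6830 to 8494 in wild type and 1498 to 6083 in the arrays labelled mutant, where array C was lowest. Endothelial markers in podocyte arrays summed to 4679 to 6151 in wild type and 993 to 2888 in the arrays labelled mutant. Wild type mesangial array C stood apart from its group, with a podocyte marker sum of 4642 beside 1200 in the next array and an endothelial sum of 8136 beside 3109. Over lists of 8 genes each, its leukocyte sum (877 beside 420) and tubule sum (1072 beside 457) stood apart as well. Mutant podocyte array A stood apart by an endothelial sum of 2888 beside 1441. *Cd2ap* had signals of 819, 870 and 797 in mesangial arrays labelled mutant and of 922, 1037 and 1123 in wild type. In podocytes the signals of *Cd2ap* were 1512, 1503 and 1478 against 2108, 1670 and 1546. In endothelial cells they were 891, 966 and 920 in arrays labelled mutant and lower, 840, 859 and 757, in wild type. No *Cd2ap* difference had an adjusted p under 0.05 (0.151, 0.504 and 0.336 in the same order, limma), so genotypes rest on the labels and not on the level of *Cd2ap*. Where the probes lie relative to the altered part of the gene is not known here.

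**Figure D1:**
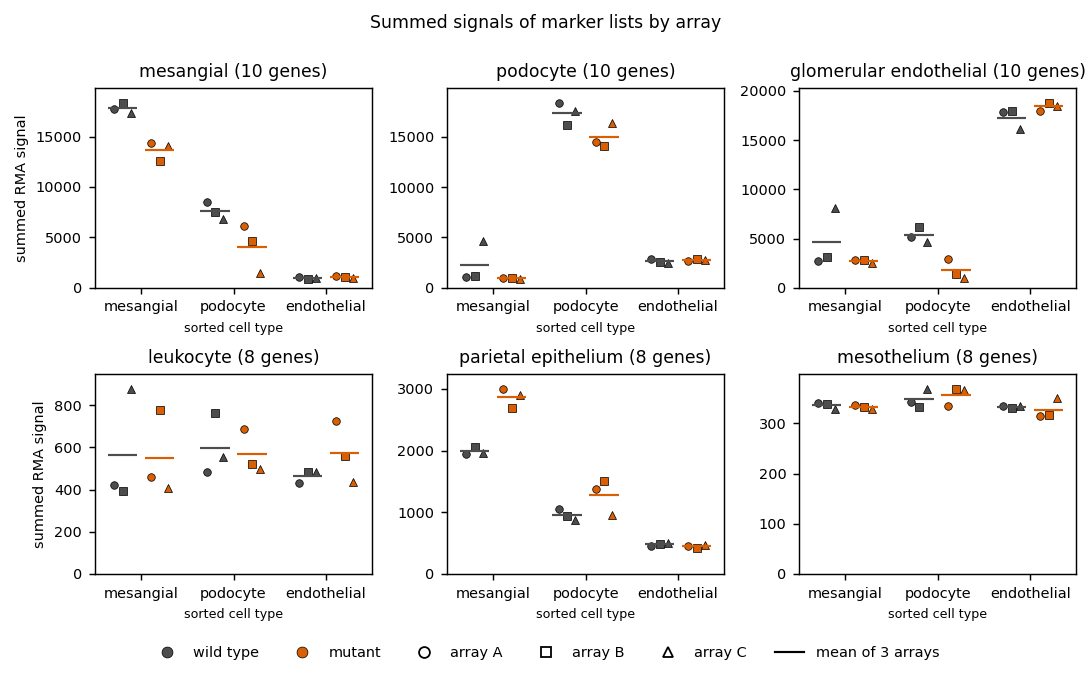
Summed RMA signal (linear axis) of 6 marker lists in each of the 18 arrays, by sorted cell type and genotype, with symbols for arrays A, B and C and a bar at the mean of 3 arrays. Wild type mesangial array C carried podocyte and endothelial markers, mesangial and endothelial markers were lower in podocyte arrays labelled mutant, and the mesothelium list held no gene at 100 in any array.

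*Rarb* is a textbook target of its own receptor family, so the promoters of the members that the results turn on are shown. Retinoic acid receptors and their partners read repeats of a short motif of 6 letters. The motif AGGTCA was searched together with the motif AGTTCA, the motif GGTTCA and the motif GGGTCA on both strands in windows of 250 bases before to 50 bases after each gene start in a RefSeq table of build GRCm38.p6, which is not the build of the array annotation and was used for sequences alone. At least 1 of these motifs was in 43.7% of 32851 windows, and a pair in the same direction with 5 bases between them was in 0.0974% of the windows (32 windows). Of the 9 genes 7 had a window, and 4 of these (*Aldh1a1*, *Rara*, *Rarb* and *Rarg*) held at least 1 motif. Among the members only *Rarb* held the spaced pair, and among 61 of 94 other pathway genes with a window only *Cyp26a1* did. The 250 bases before the start of *Rarb*, *Aldh1a2* and *Cyp26b1* follow, 5′ to 3′, with the motifs in capitals.
Rarb, chr14:16575477-16575726, minus strand: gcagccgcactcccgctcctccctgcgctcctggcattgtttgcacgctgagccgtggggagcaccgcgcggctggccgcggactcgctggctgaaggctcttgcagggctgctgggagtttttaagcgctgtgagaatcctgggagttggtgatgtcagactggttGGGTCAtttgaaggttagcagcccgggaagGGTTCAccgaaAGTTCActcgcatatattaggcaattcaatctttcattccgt
Aldh1a2, chr9:71215539-71215788, plus strand: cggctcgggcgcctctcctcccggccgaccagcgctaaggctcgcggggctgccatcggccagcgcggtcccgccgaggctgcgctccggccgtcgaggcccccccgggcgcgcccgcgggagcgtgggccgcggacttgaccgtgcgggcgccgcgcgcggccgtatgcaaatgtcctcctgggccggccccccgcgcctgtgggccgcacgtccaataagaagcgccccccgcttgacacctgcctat
Cyp26b1, chr6:84593811-84594060, minus strand: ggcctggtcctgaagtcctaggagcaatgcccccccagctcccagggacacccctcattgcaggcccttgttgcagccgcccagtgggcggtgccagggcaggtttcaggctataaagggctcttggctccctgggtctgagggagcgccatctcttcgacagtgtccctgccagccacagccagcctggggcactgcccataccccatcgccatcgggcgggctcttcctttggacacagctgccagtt
In *Rarb* the pair began 53 and 42 bases before the start, and a further copy of the motif began 83 bases before it. These letters are in neither the *Aldh1a2* nor the *Cyp26b1* window. A match is a description of the sequence and was not tested for binding.

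**Figure D2:**
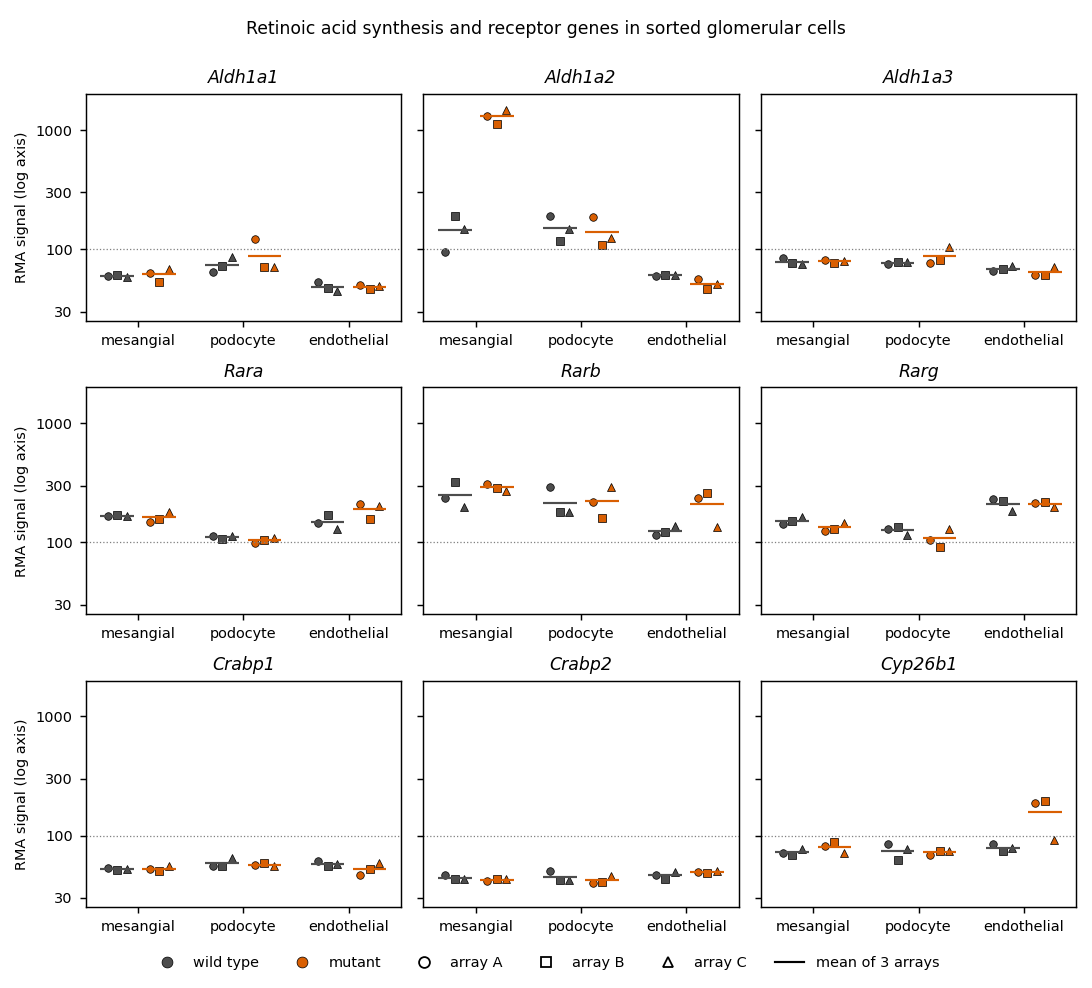
RMA signal of the 9 genes (log axis) in each array, by sorted cell type and genotype, with a bar at the mean of 3 arrays and a dotted line at 100. *Aldh1a2* in mesangial arrays labelled mutant (1128 to 1485) is the one group far from its wild type, and *Cyp26b1* is over 100 only in 2 endothelial arrays labelled mutant (187 and 193).

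Of the enzymes that make retinoic acid, *Aldh1a2* alone was well above the range of the weakest signals. In wild type it read 95, 192 and 149 in mesangial cells, 189, 118 and 147 in podocytes and 59, 60 and 61 in endothelial cells. The order was therefore podocytes and mesangial cells, which overlapped (podocyte minus mesangial 0.10 on the log2 scale, 95% interval -0.45 to 0.64), and then endothelial cells. The endothelial level was below both, by a log2 difference of -1.21 (SE 0.24) from mesangial cells and of -1.30 (SE 0.24) from podocytes, with adjusted p = 0.00424 and 0.00222 (limma). All 3 endothelial arrays lay under 100, and with signals under 100 set to 100, a setting chosen after the data were seen, the differences were -0.50 and -0.57 with adjusted p = 0.178 and 0.119, so both calls are lost and the size of the endothelial difference rests on weak signals. In the arrays labelled mutant the signals were 1324, 1128 and 1485 in mesangial cells, all above the highest wild type array, 186, 108 and 124 in podocytes and 57, 46 and 51 in endothelial cells. The mesangial difference was 9.37-fold (log2 3.23, SE 0.25, 95% interval 2.62 to 3.83, adjusted p = 0.00388, limma). In podocytes the genotypes overlapped, with a log2 difference of -0.13 (SE 0.25, 95% interval -0.71 to 0.44, adjusted p = 0.835). Endothelial cells had no array at 100 and were not tested within that cell type. The mesangial genotype effect exceeded that of podocytes by 3.36 (SE 0.33, adjusted p = 0.000129) and that of endothelial cells by 3.46 (SE 0.33, adjusted p = 5.13e-05) on the log2 scale, as tested in 1 limma fit over all 18 arrays. The endothelial arrays all lay under 100 in both genotypes, and with signals under 100 set to 100 the values were 3.34 (adjusted p = 9.89e-05) and 3.20 (adjusted p = 0.000152). Without wild type mesangial array C, the mesangial difference was 3.27. In bulk samples of sorted cells, more cells of a type and more RNA per cell cannot be told apart.

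Beside *Aldh1a2*, the summed signal of 8 parietal epithelium markers was 2692 to 2996 in mesangial arrays labelled mutant and 1948 to 2064 in wild type, and that of 8 interstitial fibroblast markers was 1129 to 1236 against 1891 to 2259. Parietal cells line the capsule of the glomerulus. *Pax8* and *Pax2*, which define them, stayed at 53 to 73 in all 6 mesangial arrays. Of the other parietal markers 4 were tested, of which all 4 had a positive difference (median log2 0.47) and 1, *Cldn1*, passed the low stringency screen, an unadjusted p under 0.05 with a fold over 1.5. *Cldn1*, a tight junction protein, read 188 to 314 in arrays labelled mutant against 93 to 117. *Cp*, the copper carrier ceruloplasmin, read 2025 to 2372 against 1459 to 1564, which is most of the list's sum. The fibroblast sum was mostly that of *Cd34*, which is also a marker of endothelium and other cells and read 700 to 825 against 1495 to 1632, while the collagen gene *Col1a1* read 114 to 131 against 107 to 115. Of the 10 mesangial markers 8 were below wild type (median log2 -0.41), and 2 passed the screen downward. All 10 endothelial markers (median -0.43) and 9 of the 10 podocyte markers (median -0.59) were also below wild type, where array C carried both sets. Of these 2 endothelial markers and 1 podocyte marker passed downward. Of the 8 juxtaglomerular and smooth muscle markers 2 passed upward and 2 downward (median -0.04). Over all transcript clusters tested the screen called 5.19%, and the median was -0.02. At an adjusted p under 0.05 (limma), 2 parietal markers were higher and 3 mesangial, 2 endothelial and 1 fibroblast marker lower, beside 2.92% of all tested. The genotypes did not overlap for 7 mesangial, 3 parietal, 3 podocyte, 2 endothelial, 4 juxtaglomerular and 1 fibroblast marker, beside 28.6% of all tested. All 8 mesothelium markers stayed under 100 in every array. What part the differences in these lists have in the *Aldh1a2* difference was not tested.

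The other retinaldehyde dehydrogenases were near the weakest signals. *Aldh1a1*, a marker of the dorsal retina and of some stem cells, read 45 to 85 in every array except mutant podocyte array A, where it read 123. *Aldh1a3* read 61 to 85 except in mutant podocyte array C, where it read 105. Each was thus tested within podocytes alone, on the strength of 1 array. The log2 differences were 0.21 (SE 0.24, adjusted p = 0.722) for *Aldh1a1* and 0.17 (SE 0.15, adjusted p = 0.647) for *Aldh1a3*, and the genotypes overlapped for both.

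All 3 receptor genes were measured above 100 in wild type, each with its own order of cell types. *Rarb*, which encodes the receptor RARβ, was lowest in endothelial cells. Its wild type signals were 235, 320 and 199 in mesangial cells, 290, 179 and 179 in podocytes and 115, 123 and 136 in endothelial cells. Mesangial cells and podocytes overlapped, while every endothelial array lay below all the others. The endothelial level was lower by a log2 difference of -0.99 (SE 0.22, adjusted p = 0.00677) from mesangial cells and of -0.76 (SE 0.22, adjusted p = 0.0199) from podocytes (limma). The podocyte comparison is the less firm, since its adjusted p rose to 0.0558 without wild type podocyte array A, 0.0615 without wild type endothelial array A and 0.0541 without wild type endothelial array B.

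*Rarg*, whose receptor is best known in skin and cartilage, was highest in endothelial cells. It read 231, 222 and 183 in wild type endothelial cells, 141, 150 and 164 in mesangial cells and 128, 136 and 116 in podocytes, and these ranges did not overlap. The endothelial level was above that of podocytes by 0.74 on the log2 scale (SE 0.11, adjusted p = 0.000759) and above that of mesangial cells by 0.48 (SE 0.11, adjusted p = 0.0106), a difference under 1.5-fold. With an offset of 50 before log2 the difference from podocytes was 0.57 (adjusted p = 0.000691, limma), also under 1.5-fold. Podocytes and mesangial cells did not differ beyond the test's threshold (-0.26, 95% interval -0.52 to -0.01, adjusted p = 0.117).

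*Rara*, the most widely expressed receptor of the family, was lowest in podocytes. Its wild type signals were 166, 171 and 166 in mesangial cells, 145, 170 and 129 in endothelial cells and 113, 107 and 114 in podocytes. The podocyte arrays lay below the rest, by -0.59 from mesangial cells (SE 0.11, adjusted p = 0.00262), which is just over 1.5-fold. Endothelial cells exceeded podocytes by 0.41 (SE 0.11, adjusted p = 0.013), under 1.5-fold, and did not differ from mesangial cells beyond the threshold (-0.19, 95% interval -0.42 to 0.05, adjusted p = 0.212). Without wild type mesangial array B or wild type podocyte array B the podocyte minus mesangial value was -0.58 or -0.56, which falls below the fold threshold.

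A cell type difference was called at an adjusted p under 0.05 and a fold over 1.5. Of the 4 members that reached 100 in a wild type array, podocytes differed from mesangial cells in 1 (*Rara*, lower), beside 15.1% of all transcript clusters tested. Endothelial cells differed from mesangial cells in 2 (*Aldh1a2* and *Rarb*, lower), beside 17.5% of all tested. Endothelial cells differed from podocytes in 3 (*Aldh1a2* and *Rarb* lower, *Rarg* higher), beside 21.5% of all tested. That last count fell to 2 without wild type endothelial array A or B or wild type podocyte array A. With signals under 100 set to 100, *Aldh1a2* left both endothelial counts, which became 1 and 2.

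The receptors were next compared between genotypes. In mesangial cells, where *Aldh1a2* rose, none of the 3 passed the screen. *Rarb* read 311, 288 and 271 in arrays labelled mutant, within the wild type range, with a log2 difference of 0.23 (95% interval -0.18 to 0.65). *Rara* read 150, 158 and 180, a difference of -0.05 (95% interval -0.27 to 0.18), and *Rarg* read 126, 130 and 145, a difference of -0.18 (95% interval -0.42 to 0.05). The adjusted p values were 0.486, 0.805 and 0.334 (limma).

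In podocytes the receptors overlapped between genotypes too. Arrays labelled mutant read 218, 162 and 289 for *Rarb*, with a log2 difference of 0.05 (95% interval -0.57 to 0.66). For *Rara* they read 99, 106 and 109, a difference of -0.09 (95% interval -0.35 to 0.18), and for *Rarg* 104, 92 and 128, a difference of -0.24 (95% interval -0.60 to 0.13). The adjusted p values were 0.952, 0.765 and 0.525 (limma).

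Endothelial cells were the cell type in which a receptor passed the low stringency screen. *Rarb* read 235, 262 and 135 in arrays labelled mutant against 115, 123 and 136 in wild type. Arrays A and B were high, while array C lay within the wild type range. The log2 difference was 0.71 (SE 0.23, 95% interval 0.17 to 1.24, 1.63-fold), with an unadjusted p = 0.0158 and an adjusted p = 0.185 (limma). The difference did not pass the screen without mutant array A (0.60), without array B (0.52) or with an offset of 50 before log2 (0.55). Without array C, the array within the wild type range, it was 1.00 with an adjusted p = 0.0156. *Rara* read 209, 157 and 203 against 145, 170 and 129, with overlap and a log2 difference of 0.35 (SE 0.15, adjusted p = 0.259), under 1.5-fold. *Rarg* read 215, 219 and 197 against 231, 222 and 183, a difference of -0.01 (95% interval -0.27 to 0.26).

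**Figure D3:**
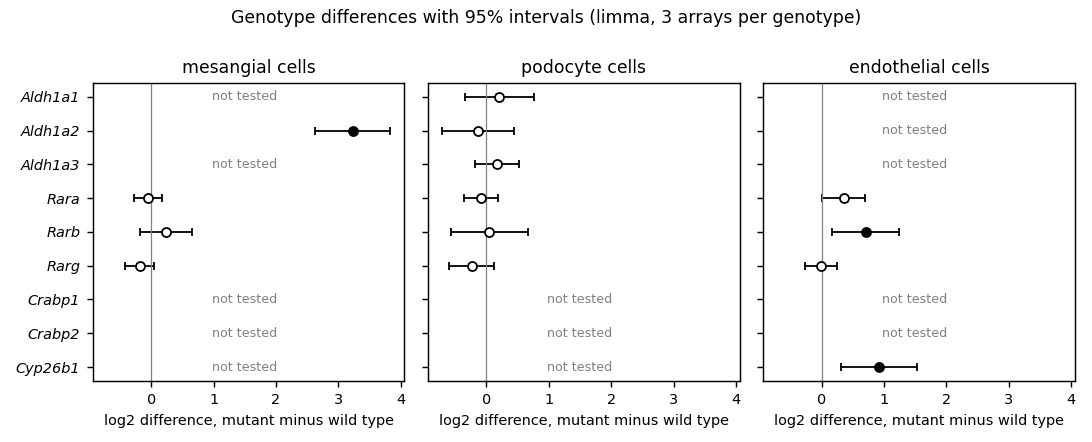
Log2 difference, mutant minus wild type, for each of the 9 genes in 3 cell types, with 95% intervals from limma on 3 arrays per genotype, where filled points passed the low stringency screen. *Aldh1a2* in mesangial cells (3.23), *Rarb* (0.71) and *Cyp26b1* (0.92) in endothelial cells are the 3 filled points, and genes with no array at 100 are marked as not tested.

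The gene of CYP26B1, an enzyme that oxidizes retinoic acid to inactive forms, was the other member that passed the screen in endothelial cells. *Cyp26b1* read 187, 193 and 93 in arrays labelled mutant and 85, 74 and 79 in wild type. The genotypes did not overlap, but array C was far closer to wild type than arrays A and B. The log2 difference was 0.92 (SE 0.26, 95% interval 0.31 to 1.53, 1.89-fold), with an unadjusted p = 0.00831 and an adjusted p = 0.146 (limma). *Cyp26b1* entered the test because 2 arrays labelled mutant reached 100. With signals under 100 set to 100 the difference was 0.62 (adjusted p = 0.282) and did not pass the screen. As each array was left out in turn the difference was 0.74 to 1.27 with an adjusted p of 0.00572 to 0.384, lowest without mutant array C, and with all 18 arrays in 1 fit the adjusted p was 0.0363. In mesangial cells it read 68 to 88 and in podocytes 63 to 84, in both genotypes, and was not tested there.

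Whether the endothelial effects differ from those of the other cell types was tested over all 18 arrays. For *Cyp26b1* the podocyte effect minus the endothelial effect was -0.96 (SE 0.29, adjusted p = 0.08) and the mesangial effect minus the endothelial effect was -0.77 (SE 0.29, adjusted p = 0.207). For *Rarb* the same differences were -0.66 (adjusted p = 0.281) and -0.47 (adjusted p = 0.535), and for *Rara* -0.44 (adjusted p = 0.137) and -0.40 (adjusted p = 0.254). None of these passed an adjusted p of 0.05, so the endothelial effects on *Cyp26b1*, *Rarb* and *Rara* were not shown to differ from those of the other cell types. Without mutant endothelial array C, the array nearest to wild type, both *Cyp26b1* differences passed, at -1.31 (adjusted p = 0.00336) and -1.12 (adjusted p = 0.00572). The podocyte and mesangial arrays on the other side of these differences all lay under 100, and with signals under 100 set to 100 and all arrays kept both values were -0.62 (adjusted p = 0.148 and 0.212). With array medians subtracted, the podocyte minus endothelial value passed as well (-1.06, adjusted p = 0.0455), but that setting shifted the median of all clusters by -0.10, as much as it moved *Cyp26b1*, and raised the calls over all clusters from 285 to 970. Of 7 members tested, 1 passed for mesangial minus podocyte (*Aldh1a2*), beside 0.717% of all tested, 1 for mesangial minus endothelial (*Aldh1a2*), beside 1.07%, and 0 for podocyte minus endothelial, beside 2.11%. At an unadjusted p under 0.05 that last comparison held *Cyp26b1* (0.00474) and *Rara* (0.0189), beside 23.4% of all tested. Mesangial minus endothelial held both as well (0.0176 and 0.0299) beside *Aldh1a2*, where 15.9% of all tested lay under it, and mesangial minus podocyte held *Aldh1a2* alone, beside 12% of all tested.

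Mutant endothelial arrays A and B also had higher summed signals of leukocyte markers. The sum over 8 leukocyte genes was 723, 557 and 435 in arrays A, B and C labelled mutant and 431 to 486 in wild type. Of these genes 3 were tested, all 3 with a positive difference (median log2 0.45, beside 0.07 over all tested). Of the 3, 0 passed the low stringency screen, beside 3.82% of all tested, and the genotypes overlapped for each. *Ptprc*, which encodes the common leukocyte antigen CD45, read 168, 101 and 76 against 75, 98 and 69, and *Lyz2*, the lysozyme of macrophages and neutrophils, read 202, 134 and 54 against 53, 93 and 93. Array C was thus lowest of the arrays labelled mutant for the sum, for *Ptprc* and *Lyz2* and for *Rarb* and *Cyp26b1*. It was not lowest for every leukocyte gene, since *Cd74* read 59, 60 and 65 and *Cd3e* read 53, 57 and 65 in arrays A, B and C, all under 100. The leukocyte sum was highest in array A, while *Rarb* and *Cyp26b1* were highest in array B. *Ptprc* and *Lyz2* were chosen after their values were seen. The part of leukocytes in the endothelial values was not tested.

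The carriers bring retinoic acid to the nucleus and to the enzymes that break it down. *Crabp1* read 46 to 64 and *Crabp2* read 40 to 50 over all 18 arrays, within the range in which most transcript clusters lie (array medians 62.8 to 71.6). Neither reached 100 in any array, and neither was tested.

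Counted over the members, the low stringency screen called 1 of 4 tested in mesangial cells, 0 of 6 in podocytes and 2 of 4 in endothelial cells, all higher in arrays labelled mutant. Over all transcript clusters tested it called 5.19%, 5.61% and 3.82%. At an adjusted p under 0.05 the counts were 1, 0 and 0, beside 2.92%, 0.0578% and 1.29% of all tested. In mesangial cells *Aldh1a2* alone had an unadjusted p under 0.05, beside 21.7% of all tested. In podocytes no member had an unadjusted p under 0.05, the lowest being that of *Rarg* (0.173, limma), while in endothelial cells 3 of the 4 did (*Rara*, *Rarb* and *Cyp26b1*), beside 14.3% and 18.5% of all tested. The genotypes did not overlap for 1, 0 and 1 of the members tested, beside 28.6%, 21.3% and 25.1% of all tested. *Cyp26b1* in endothelial cells passed the filter through its high group alone, so its place in these counts follows in part from that filter.

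The wider pathway was read from 6 lists of 94 genes: retinoid supply, retinol dehydrogenases, breakdown, retinoid X receptors and partners, receptor cofactors, and genes known to respond to retinoic acid. All 94 are on the array. In endothelial cells 48 were tested, of which 5 passed the low stringency screen, all higher in arrays labelled mutant, beside 3.82% of all tested in either direction. The median log2 difference of the 48 was 0.13, beside 0.07 over all transcript clusters tested.

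The retinal reductase *Dhrs3*, which lowers the supply for retinoic acid synthesis and is itself known to respond to retinoic acid, read 1214, 1107 and 801 in endothelial arrays labelled mutant against 570, 599 and 618 in wild type. The genotypes did not overlap, and array C was again the lowest of its group. The log2 difference was 0.78 (SE 0.15, 1.72-fold, adjusted p = 0.0556, limma). *Tgm2*, a transglutaminase induced by retinoic acid in many cells, read 176, 134 and 121 against 89, 78 and 73, a log2 difference of 0.83 (SE 0.15, adjusted p = 0.0496). All its wild type arrays lay under 100, so it passed the filter through its high group, and with signals under 100 set to 100 the difference was 0.50 (adjusted p = 0.162), under 1.5-fold. *Nr2f2*, an orphan nuclear receptor of venous endothelium, read 274, 160 and 193 against 106, 128 and 99, a difference of 0.89 (SE 0.20, adjusted p = 0.0799). The other two were *Dusp6*, a phosphatase of the ERK pathway (0.61, adjusted p = 0.0507), and *Egr1*, an immediate early gene (0.69, adjusted p = 0.2). The adjusted p of *Tgm2* ranged from 0.0488 to 0.195 as each array was left out in turn. For *Dhrs3*, *Nr2f2* and *Egr1* an adjusted p under 0.05 was reached without 1 array, which was mutant array C (0.0125), B (0.0407) and B (0.0125) in this order. For *Dusp6* it was 0.0247 without wild type array A. Of the other settings 4 also gave an adjusted p under 0.05 for *Dhrs3* and for *Dusp6* (down to 0.0297 and 0.0295), as did the fit of all 18 arrays for *Nr2f2* (0.0121). The screen was no longer passed by *Dusp6* without mutant array B (0.57) or wild type array B (0.57) or C (0.56), nor by *Egr1* without mutant array A (0.61) or C (0.47) or wild type array C (0.66). Under quantile normalization *Dusp6* (0.49) and *Egr1* (0.58) failed the screen, and under the offset of 50 *Dusp6* (0.50), *Egr1* (0.55) and *Tgm2* (0.57) did.

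**Figure D4:**
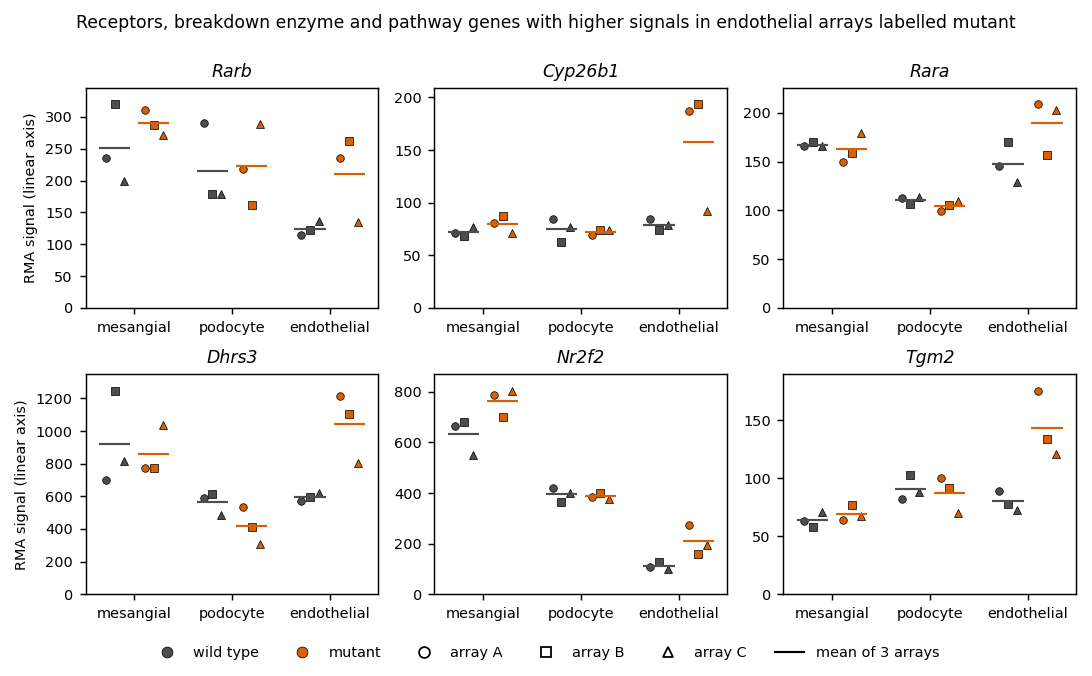
RMA signal (linear axis from 0) of 6 genes in each array, by sorted cell type and genotype, with a bar at the mean of 3 arrays. In endothelial arrays labelled mutant, array C (triangle) lies near the wild type arrays for *Rarb* (135) and *Cyp26b1* (93), while all 3 arrays lie above wild type for *Dhrs3*, *Nr2f2* and *Tgm2*.

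In the fit over all arrays, 3 of 59 list genes tested had a podocyte minus endothelial effect with an adjusted p under 0.05, all below 0, beside 2.11% of all tested. They were *Nr2f2* (-0.91, adjusted p = 0.0452), *Tgm2* (-0.90, adjusted p = 0.0487) and the receptor cofactor gene *Tbl1xr1* (-1.04, adjusted p = 0.0309), which was named after its values were seen. *Tbl1xr1* has 2 transcript clusters, and only that of the higher mean signal was read. *Tbl1xr1* read 418 to 479 in endothelial arrays labelled mutant against 295 to 409 in wild type (log2 0.43), and 183 to 282 against 313 to 437 in podocytes (log2 -0.61). For *Dhrs3* the value was -1.24 (adjusted p = 0.0541). These calls are not firm. For *Tbl1xr1* the adjusted p was over 0.05 in 8 of 12 fits that each left out 1 array (up to 0.0876) and under quantile normalization (0.0832). For *Nr2f2* and *Tgm2* alike the adjusted p was over 0.05 in 10 of 12 fits that each left out 1 array (up to 0.117 and 0.121), as it was with no signal minimum (0.0578 and 0.0603) and under quantile normalization (0.111 and 0.0816). Most *Tgm2* signals in this contrast were under 100, and with signals under 100 set to 100 its value was -0.52 (adjusted p = 0.0392). The *Dhrs3* value lay at the threshold. It passed without mutant podocyte array A (-1.44, adjusted p = 0.0108), with the signal minimum in all 3 arrays of a group (0.0449), with medians subtracted (0.0319), with an offset of 50 (0.0463) and with signals under 100 set to 100 (0.0492), and it did not with no signal minimum (0.0681), under quantile normalization (0.101), with trend and robust estimation or in the other 11 fits that left out 1 array. *Rdh10*, the retinol dehydrogenase that starts retinoic acid synthesis in embryos, read 149, 147 and 178 in endothelial arrays labelled mutant against 114, 122 and 137, a difference of 0.34 (SE 0.12, adjusted p = 0.195). *Pparg*, a nuclear receptor that pairs with retinoid X receptors, read 261, 164 and 129 against 123, 102 and 134, a difference of 0.57 (SE 0.24, adjusted p = 0.265) that did not pass the screen. It was 0.29 without mutant array A, and it passed the screen without mutant array C (0.80, adjusted p = 0.168) and with medians subtracted (0.65).

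In mesangial cells 52 of the 94 were tested, of which 1 passed the screen upward and 1 downward, beside 5.19% of all tested, and the median log2 difference was -0.10 beside -0.02 over all tested. *Egr1* read 194, 181 and 138 against 101, 99 and 93 (log2 0.80, SE 0.14, adjusted p = 0.0396). *Nr2f1*, which encodes COUP-TFI, read 179, 191 and 230 against 302, 318 and 297 (log2 -0.62, SE 0.11, adjusted p = 0.0418). Without wild type mesangial array C their adjusted p values were 0.0732 and 0.0694, and they were over 0.05 in 5 of 6 fits that each left out 1 array, up to 0.141 and 0.146. *Nr2f1* no longer passed the screen without mutant array A (-0.54), under quantile normalization (-0.54) or under the offset of 50 (-0.51), and *Egr1* did not under the offset (0.57). With all 18 arrays in 1 fit the adjusted p was over 0.05 for both (0.218 for *Nr2f1*). *Pparg* read 303, 255 and 361 against 184, 212 and 246, with no overlap and a difference of 0.51 (SE 0.16, adjusted p = 0.142), under 1.5-fold. Without wild type mesangial array C its difference was 0.62 (adjusted p = 0.123), which passed the screen, as did the 0.64 without mutant array B. Over the lists, 3 genes passed upward and 2 downward of 47 tested without wild type mesangial array C, beside 5.33% of all tested. At an adjusted p under 0.05 there were then 2, *Icam1* and *Plat*, both higher, beside 304 of 11134 transcript clusters tested (limma). *Icam1* read 102 to 111 against 68 to 75, so it passed the filter through its high group. *Rxra*, the retinoid X receptor that partners the retinoic acid receptors in most adult tissues, read 120, 123 and 112 against 133, 138 and 158, a difference of -0.27 (SE 0.10, adjusted p = 0.178). *Rxrb* (52 to 69), *Rxrg* (33 to 38) and *Cyp26a1* (32 to 44) stayed under 100 in all 18 arrays.

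In podocytes 56 of the 94 were tested, of which 2 passed the screen upward and 9 downward, beside 5.61% of all tested. The median log2 difference was -0.07 beside -0.04 over all tested, and no adjusted p was under 0.05. With all 18 arrays in 1 fit, which raised the podocyte calls over all clusters from 7 to 837, the adjusted p values of *Meis2*, *Pdgfra* and *Egr1* were 0.00363, 0.00821 and 0.02. Among those lower in arrays labelled mutant were *Meis2* (347, 174 and 150 against 535, 684 and 527, log2 -1.47, adjusted p = 0.143), *Cd38* (180, 77 and 70 against 232, 379 and 153, log2 -1.27, adjusted p = 0.263) and *Pdgfra* (158, 103 and 67 against 334, 211 and 209, log2 -1.26, adjusted p = 0.188). *Nr2f1* read 82, 85 and 38 against 172, 103 and 88 (log2 -0.86, adjusted p = 0.347). Since 4 of these 6 arrays lay under 100, the *Nr2f1* difference was -0.27 (adjusted p = 0.641) with signals under 100 set to 100, and did not pass the screen. Nor did it pass under 4 other settings (no signal minimum, medians subtracted, quantile normalization and the offset) or without mutant array C (-0.48) or wild type array A (-0.57) or B. For *Cd38* the screen was no longer passed with signals under 100 set to 100 (-0.97) nor without mutant array B or C or wild type array B. *Egr1* passed upward, at 239, 158 and 146 against 92, 99 and 84 (log2 0.95, adjusted p = 0.143). Its wild type arrays all lay under 100, so it too passed the filter through its high group, and with signals under 100 set to 100 the difference was 0.82 (adjusted p = 0.182). *Meis2* and *Cd38* were highest in endothelial arrays (1460 to 1989 and 1050 to 1378) and *Pdgfra* was highest in mesangial arrays (756 to 1248). Of the 10 endothelial markers 8 passed the screen downward in the same comparison, with a median log2 difference of -1.63, as did 5 of the 10 mesangial markers (median -0.72). Values of other marker lists ran the other way. The 8 juxtaglomerular and smooth muscle markers summed to 3687, 2958 and 1407 in podocyte arrays labelled mutant against 1210 to 1334 in wild type, with 2 of 7 tested higher by the screen (median log2 0.57). Of 6 parietal markers tested 2 passed upward and 1 downward (median 0.37). The part of these other cells in the podocyte values was not tested. Without mutant podocyte array A, 2 list genes passed upward and 11 downward of 55 tested, and 5 had an adjusted p under 0.05 (*Egr1* higher, and among the other 4 *Meis2*, *Pdgfra* and *Rdh1*, lower), while the screen then called 10.3% of all tested.

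The retinol dehydrogenase genes *Rdh1* and *Rdh9* were read almost wholly in podocytes. They are close relatives, and their probes may share signal, so their values are not independent. In wild type podocytes *Rdh1* read 1421, 1111 and 1304, against 57, 56 and 163 in mesangial cells and 72, 63 and 80 in endothelial cells. Podocytes exceeded mesangial cells by a log2 difference of 3.98 (SE 0.35, adjusted p = 4.13e-05), and the endothelial minus podocyte value was -4.15 (SE 0.35, adjusted p = 2.03e-05). All other mesangial and endothelial arrays lay under 100, and with signals under 100 set to 100 the values were 3.43 and -3.67. The mesangial array at 163 was array C, which also carried podocyte markers. *Rdh9*, named after its values were seen, read 880 to 1431 in wild type podocytes and 42 to 109 in the other wild type arrays. In podocyte arrays labelled mutant *Rdh1* read 1231, 307 and 436, so that array A lay within the wild type range and arrays B and C below it, with a log2 difference of -1.21 (SE 0.46, adjusted p = 0.303). That value rests on single arrays: it was -1.80 (adjusted p = 0.0156) without mutant array A and -0.80 (adjusted p = 0.479) without mutant array B. It no longer passed the screen without mutant array B or C or wild type array A or C. With signals under 100 set to 100 it did not pass either, although the difference itself stayed at -1.21 (adjusted p = 0.372, limma).

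**Figure D5:**
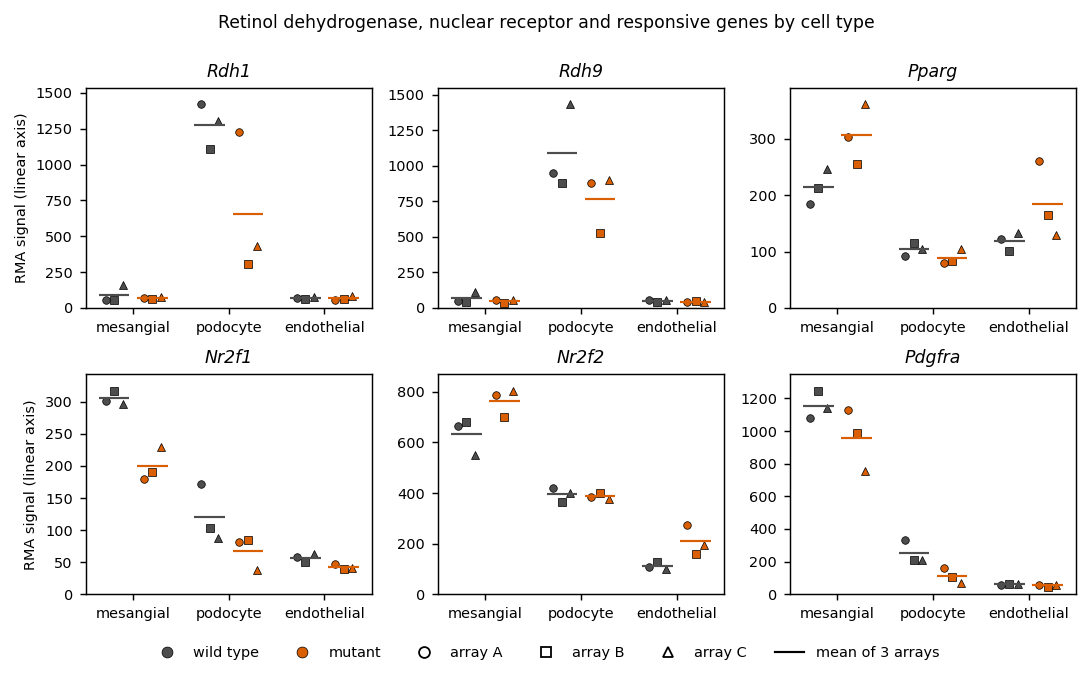
RMA signal (linear axis from 0) of 6 pathway genes in each array, by sorted cell type and genotype, with a bar at the mean of 3 arrays. *Rdh1* and *Rdh9* are read in podocytes, *Pparg*, *Nr2f1*, *Nr2f2* and *Pdgfra* are highest in mesangial cells, and *Pparg* is higher in all 3 mesangial arrays labelled mutant (255 to 361) than in wild type (184 to 246).

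Other pathway genes were highest in mesangial cells. *Pparg* was lower than in mesangial cells by -1.03 in podocytes and -0.84 in endothelial cells (adjusted p = 0.000573 and 0.00165). *Nr2f2* read 552 to 682 in mesangial cells, 365 to 419 in podocytes and 99 to 128 in endothelial cells, with no overlap. *Stra6*, the retinol uptake receptor, read 78 to 109 over all 18 arrays. Over the 94 genes, 57 were tested between wild type cell types, of which 6 were higher and 12 lower in podocytes than in mesangial cells, 12 higher and 11 lower in endothelial than in mesangial cells, and 10 higher and 11 lower in endothelial cells than in podocytes. Of all transcript clusters tested 15.1%, 17.5% and 21.5% were called in the same order.

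Genes whose pattern was most like that of a member were taken by Pearson's r of log2 signals over the 18 arrays, among 11132 transcript clusters. Since the arrays share 6 groups, r mostly reflects the group levels and is a description. The closest to *Aldh1a2* were *Spn* (r = 0.96), *Fam19a1* (0.96), *Col14a1* (0.94), *Errfi1* (0.94) and *Frzb* (0.94). All 5 were highest in mesangial arrays labelled mutant. *Fam19a1* read 575 to 1111 there against 157 to 168 in wild type mesangial cells, *Col14a1*, a fibril-associated collagen, 351 to 563 against 83 to 139, *Errfi1*, an inhibitor of the EGF receptor, 881 to 1216 against 176 to 243, and *Frzb*, a secreted Wnt antagonist, 605 to 636 against 44 to 181. The closest to *Rarg* were *Notch1* (r = 0.97), *Srp19* (0.97) and *Snrk* (0.97), and *Notch1*, an endothelial Notch receptor, likewise was highest in endothelial cells (221 to 247) and lowest in podocytes (73 to 107). *Rara* came closest to *Jam3* (0.90), *Ptpra* (0.90) and *Klhl6* (0.90), and *Rarb* to *Pgd* (0.88), *Mapkapk2* (0.84) and *Aff4* (0.83).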

How the data were processed

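RNA of sorted cells was amplified in a single round (Ribo-SPIA) and measured on Affymetrix Mouse Gene ST arrays. The authors deposited linear intensity values that the sample labels ascribe to RMA, and a second form, log2 of the same values minus each row's median over the arrays (largest deviation 1.95e-06), whose 18 columns were not used. The series design text names another array type and program than the file header and the methods.

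Signals were taken as log2 and compared with lmFit and eBayes of limma 3.58.1 (R 4.3.3) without covariates, over transcript clusters that reached a signal of 100 in 1 or more arrays of the fit, with Benjamini-Hochberg adjustment over all of them. The code was tested on simulated data. Promoters were searched with Python. The number of arrays limits the precision. Array medians lay between 62.8 and 71.6, and Pearson's r within groups between 0.967 and 0.992. The study's text calls the arrays biological replicates, and replicate numbers pair no samples across groups.

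The members and lists were chosen with earlier results of these data known. Named are all members, *Cd2ap*, list genes passing the screen (up to 6 per cell type by size), 8 fixed genes (*Rxra*, *Rxrb*, *Rxrg*, *Rdh10*, *Dhrs3*, *Stra6*, *Cyp26a1*, *Pparg*) and the genes of most similar pattern. An array stood apart when a marker sum of another cell type was at least 2 times the next in its group, a ratio chosen after the data were seen. Some items under this rule are not reported here. *Aldh1a3* and *Crabp2* promoters were not used here.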

Additional observations from a re-analysis of the deposited data

Results flagged for a closer look

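The genotype effect on *Aldh1a2* differed between cell types. The mesangial effect minus the podocyte effect was 3.36 and the mesangial effect minus the endothelial effect was 3.46 on the log2 scale (adjusted p = 0.000129 and 5.13e-05, limma interaction contrasts over 18 arrays), and both were drawn to attention by that test of the difference. *Aldh1a2* lay under 100 in all 6 endothelial arrays, and with signals under 100 set to 100 the values were 3.34 and 3.20 (adjusted p = 9.89e-05 and 0.000152).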

How the results depend on the processing

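The mesangial *Aldh1a2* difference and its 2 interaction contrasts kept their direction and call under every alternative run, with log2 values of 2.83 to 3.46, 2.92 to 3.64 and 2.95 to 3.70. Setting signals under 100 to 100 was chosen after the data were seen. Counts of members called moved as follows. In endothelial cells the count of 2 fell to 1 with the signal minimum in all 3 arrays of a group. It was also 1 with an offset of 50 before log2, where *Rarb* was lost, and with signals under 100 set to 100. As each array was left out it was 1 to 2 (1 without mutant endothelial array A or B). Between wild type podocytes and mesangial cells the count of 1 fell to 0 under quantile normalization and under the offset, and was 0 to 1 with arrays left out (0 without wild type mesangial or podocyte array B). Between wild type endothelial cells and podocytes the count of 3 fell to 1 under the offset, to 2 with signals under 100 set to 100, and was 2 to 3 with arrays left out. Between wild type endothelial and mesangial cells the count of 2 fell to 1 with signals under 100 set to 100. For the difference in genotype effect the count was 1 to 2 for mesangial minus endothelial and 0 to 1 for podocyte minus endothelial with arrays left out (the higher without mutant endothelial array C), and the latter was 1 with array medians subtracted. The signs that turned were of values near 0 that passed no test: *Rara* in mesangial cells (0.00028 under quantile normalization), *Rarg* in endothelial cells (0.066 with medians subtracted), and, with arrays left out, *Rara* in mesangial cells (-0.12 to 0.011), *Aldh1a2* (-0.36 to 0.040) and *Rarb* (-0.16 to 0.28) in podocytes, *Rarg* in endothelial cells (-0.11 to 0.060) and *Aldh1a2* in wild type podocytes minus mesangial cells (-0.18 to 0.33). For podocyte minus endothelial effects, median subtraction shifted the median of all clusters by -0.10 and quantile normalization by 0.11. Over all clusters, the 7 podocyte calls at an adjusted p under 0.05 became 837 with all 18 arrays in 1 fit and 344 without mutant podocyte array A. Where a call moved, the cause was not tested. Each member had 1 transcript cluster, so the mean over clusters gave no new value. No paired analysis was possible because the groups share no replicate numbers.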
